A study of Mus musculus with 16 samples.

Results

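The miR-15/16 seed family and its close relative miR-503 were examined in whole lungs of mice with allergic airways disease. Members were the array rows named miR-15a, miR-15b, miR-16, miR-195, miR-322, miR-497 or miR-503 and carrying the 5p suffix or none. This gave 7 miRNAs of the 611 mouse miRNAs on the array, all with the 5p suffix, and the rule used no measured value. All 7 were detected on all 16 arrays and were among the 266 miRNAs tested. A miRNA was tested where some group had it detected on all of its arrays.

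Total RNA from lungs of adult BALB/c mice was labelled with Cy3 and hybridised to Agilent 1-colour miRNA arrays. PBS/PBS mice (2 arrays) were injected with 1 mg Alhydrogel, an aluminium adjuvant, and challenged intranasally with PBS, as the labels have it, although the methods describe an ovalbumin challenge for all mice. PBS/OVA mice (4 arrays) received the same injection and were challenged with 10 μg ovalbumin (OVA, an egg white protein used as the allergen) on days 12 to 15. OVA/OVA mice (6 arrays) were sensitised on day 0 with 50 μg OVA in the same adjuvant and challenged like the PBS/OVA mice. OVA/OVA DEX mice (4 arrays) were in addition injected with dexamethasone, a synthetic glucocorticoid, at 3 mg/kg on alternate days from day 11, while the other groups are labelled as treated with PBS. Lungs were taken on day 16, 24 hours after the last challenge. The labels number the arrays as replicates but do not say that each came from a separate animal, so p-values measure the spread between these arrays.

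The family is named for a shared seed, the stretch near the 5′ end through which a miRNA finds its targets by base pairing. Its members are textbook repressors of cell cycle genes such as cyclins and cyclin-dependent kinases, and of the apoptosis inhibitor Bcl2. They are transcribed from several short clusters, and miR-322 (the mouse counterpart of human miR-424) and miR-503 lie together on the X chromosome.

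The mature sequences are shown because they define the family and separate miR-503 from it. All 7 array names matched RefSeq entries (build GRCm38.p6), in which miR-195-5p is listed as miR-195a-5p and miR-497-5p as miR-497a-5p. Sequences run 5′ to 3′ and capitals mark the seed, bases 2 to 8.
miR-15a-5p: uAGCAGCAcauaaugguuugug
miR-15b-5p: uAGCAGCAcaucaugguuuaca
miR-16-5p: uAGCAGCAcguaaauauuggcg
miR-195-5p: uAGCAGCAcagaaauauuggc
miR-497-5p: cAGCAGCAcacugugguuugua
miR-322-5p: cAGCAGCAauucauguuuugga
miR-503-5p: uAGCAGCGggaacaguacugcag

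The 6 members other than miR-503 had the seed AGCAGCA. The seed of miR-503 was AGCAGCG, so all 7 shared AGCAGC at bases 2 to 7. Of 1679 mature mouse miRNA names in the RefSeq table, 11 had AGCAGC there, and 7 of these 11 were on the array. Over the whole aligned sequence the closest pair was miR-16 and miR-195, with 19 of 21 bases identical, and beyond base 8 they shared 11 of 13. Each of the other members matched miR-503 at 10 to 12 bases of the whole sequence, seed included.

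The members came from 4 places in the genome. On chromosome 14, miR-15a (chr14:61632075-61632096, minus strand) and 1 copy of miR-16 (chr14:61631936-61631957) were 117 bases apart within the bounds of Dleu2, a long non-coding RNA gene. On chromosome 3, miR-15b (chr3:69009775-69009796, plus strand) and the second copy of miR-16 (chr3:69009918-69009939) were 121 bases apart within the bounds of Smc4, which codes for a condensin subunit. The array cannot separate the 2 copies of miR-16, whose mature sequence is the same. On chromosome 11, miR-497 (chr11:70234730-70234751, plus strand) and miR-195 (chr11:70235062-70235082) were 310 bases apart. On the X chromosome, miR-322 (chrX:53054306-53054327, minus strand) and miR-503 (chrX:53054027-53054049) were 256 bases apart within the bounds of C430049B03Rik, a long non-coding RNA gene.

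Between 224 and 301 miRNAs were detected on an array. Before scaling, the miRNA signal of an array summed to 793227 and 940050 on the PBS/PBS arrays, 493063 to 718149 for PBS/OVA, 499733 to 638811 after DEX and 251350 to 733489 for OVA/OVA, so that the dimmest arrays were OVA/OVA arrays. Both PBS/PBS arrays lay on slide 1, which held 2 arrays of every group, and slide 2 held 4 OVA/OVA arrays and 2 each of PBS/OVA and OVA/OVA DEX. With so few arrays in a group, precision is limited throughout. Values are log2 signals, scaled so that the 75th percentile of the commonly detected miRNAs is equal between arrays, and a difference is therefore relative to the bulk of miRNAs. Since probes differ in brightness, members are compared between groups and not with each other in level.

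MiR-503 rose in OVA/OVA over PBS/OVA and fell after DEX. MiR-195 and miR-497 ran the other way, falling in OVA/OVA and rising after DEX. MiR-15a, miR-15b, miR-16 and miR-322 passed the test in none of the 6 comparisons with the scaling used. In OVA/OVA compared to PBS/OVA, 3 of 7 members passed limma's moderated test with a Benjamini-Hochberg adjusted p under 0.05, against 31.6% of all miRNAs tested. One direction at a time, 1 member was higher (14.7% of all) and 2 were lower (16.9% of all). In OVA/OVA DEX compared to OVA/OVA, 3 of 7 passed, against 53.4%, with 2 members higher (32.3% of all) and 1 lower (21.1% of all). In OVA/OVA compared to PBS/PBS, 2 of 7 passed, against 25.6%, and both were lower (12.4% of all). With 7 members, shares of this size lie near the background, and nothing particular to the family is read from them. The balance of directions depended on the scaling. Scaled by control spots, all members but miR-503 were called, 6 lower and 0 higher in OVA/OVA compared to PBS/OVA, and 6 higher and 0 lower after DEX. With quantile normalization the calls in OVA/OVA compared to PBS/OVA were miR-15a and miR-15b, higher, and miR-195, lower, and the 1 call after DEX was miR-15b, lower. Only the decrease of miR-503 after DEX reached 2-fold, a size reached in either direction by 12.8% of all miRNAs in that comparison.

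By limma none of the 7 passed in PBS/OVA compared to PBS/PBS (0.376% of all miRNAs), in OVA/OVA DEX compared to PBS/PBS (0% of all) or in OVA/OVA DEX compared to PBS/OVA (2.26% of all). At an unadjusted p under 0.05 the counts of members were 0, 1 and 1, beside 4.51%, 7.14% and 22.2% of all miRNAs. The exact Mann-Whitney test cannot go below p = 0.133 with 4 arrays against 2, so it could call no member against PBS/PBS. In OVA/OVA DEX compared to PBS/OVA its lowest possible p is 0.0286 before adjustment, and with the same adjustment it gave 0. Over the 4 groups, limma's moderated F-test was passed by miR-503 (adjusted p = 0.00185), miR-497 (adjusted p = 0.00267) and miR-195 (adjusted p = 0.0181), against 44% of all miRNAs. The comparisons share arrays, the OVA/OVA arrays entering most of them, so a low or high OVA/OVA mean appears in several comparisons at once.

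**Figure D1:**
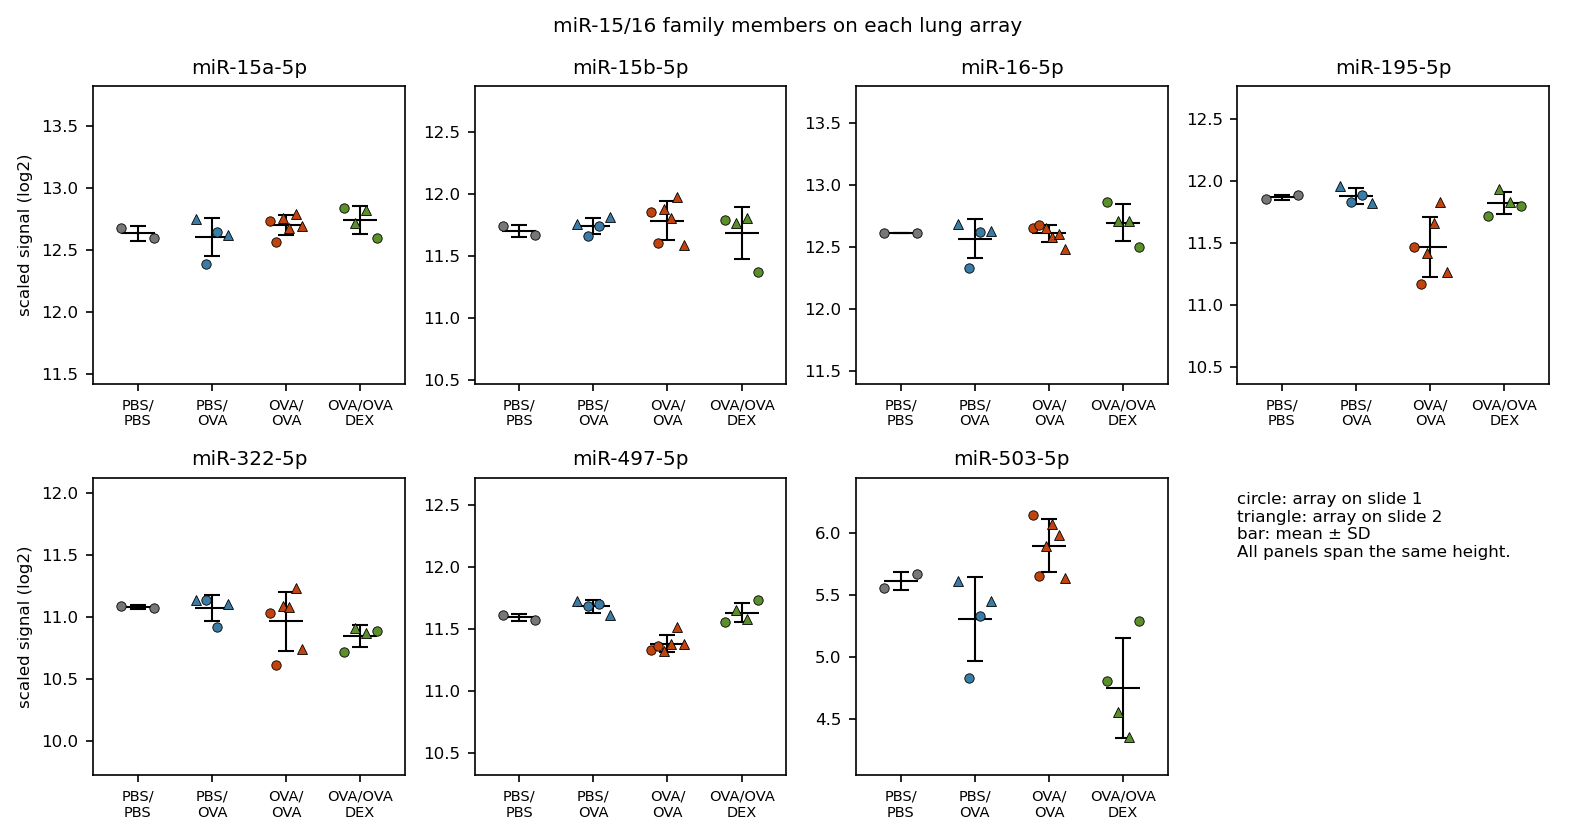
Scaled signal (log2) of the 7 members on each of the 16 arrays by group, with the mean ± SD as bars, circles for slide 1 and triangles for slide 2, and the same height of axis in every panel. The 6 OVA/OVA arrays of miR-503 (5.63 to 6.15) sit above all 4 OVA/OVA DEX arrays (4.35 to 5.29), and those of miR-497 (11.32 to 11.52) sit below all other arrays.

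MiR-503, the X-linked member with the divergent seed, gave the largest difference in the family. Its scaled signal (log2) was 5.56 and 5.66 on the PBS/PBS arrays and 5.61, 4.83, 5.33 and 5.45 on the PBS/OVA arrays. In OVA/OVA it had a lowest value of 5.63, a median of 5.94 and a highest value of 6.15. On the OVA/OVA DEX arrays it was 4.80, 4.55, 4.35 and 5.29. The OVA/OVA arrays thus lay above all PBS/OVA and all OVA/OVA DEX arrays and overlapped with PBS/PBS.

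After DEX, miR-503 fell by 1.15 on the log2 scale from OVA/OVA (SE 0.185, limma adjusted p = 0.000314), from 5.90 ± 0.21 (SD, n = 6) to 4.75 ± 0.40 (SD, n = 4), which is 2.21-fold. The 39 miRNAs with all OVA/OVA DEX arrays below all OVA/OVA arrays made up 14.7% of those tested. Within slide 1 the difference was -0.85 (SE 0.27, limma adjusted p = 0.0658) and within slide 2 it was -1.44 (SE 0.141, limma adjusted p = 0.00445). Both of its probes gave a lower mean after DEX, by -1.68 and -1.07. Normexp background correction models the background instead of subtracting it, and here it added an offset of 50 to each spot. With it the difference was -0.47 (limma adjusted p = 0.0513), beside a median of -0.16 over all miRNAs, and the call was lost. It was also lost with control spot scaling (-0.42, adjusted p = 0.147), with quantile normalization (-0.82, adjusted p = 0.0726) and without scaling (-0.86, adjusted p = 0.16), always with the same sign. The unscaled signal of miR-503, summed over its 2 probes, was 16.9 to 95.8. The normexp offset entered with each of the 2 probes, so that its sum was above this signal on every array. The part of the offset in the normexp values was not tested.

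In OVA/OVA, miR-503 rose by 0.59 over PBS/OVA (SE 0.185, limma adjusted p = 0.0304), from 5.30 ± 0.34 (SD, n = 4), which is 1.51-fold. Such a separation of arrays was seen for 10.9% of all miRNAs. Within slide 1 the difference was 0.82 (SE 0.27, limma adjusted p = 0.111) and within slide 2 it was 0.36 (SE 0.141, limma adjusted p = 0.139). This call was lost without PBS/OVA replicate 2 (0.43, adjusted p = 0.0763), PBS/OVA replicate 3 (0.60, adjusted p = 0.066) or OVA/OVA replicate 1 (0.54, adjusted p = 0.0592), and also with normexp correction (0.50, adjusted p = 0.0511) and with the scanner software's total gene signal (0.45, adjusted p = 0.126). It was 0.25 with quantile normalization (adjusted p = 0.591), 0.35 with the percentile over all miRNAs (adjusted p = 0.331), 0.076 without scaling (adjusted p = 0.893) and 0.61 with the mean of log2 probe signals (adjusted p = 0.118), none of them past the test, and the call was lost without a detection filter too. Scaled by control spots it was -0.075. Compared to PBS/PBS, OVA/OVA differed by 0.29 (SE 0.234, limma adjusted p = 0.364), which became 0.74 with normexp (adjusted p = 0.0208). The median of all miRNAs was then 0.55. OVA/OVA DEX lay below PBS/PBS by a difference of -0.86 (SE 0.248, limma adjusted p = 0.209) and below PBS/OVA by -0.56 (SE 0.203, limma adjusted p = 0.135). With normexp both turned, to 0.27 (adjusted p = 0.351) and 0.034 (adjusted p = 0.919). The median of all miRNAs was then 0.34 and 0.14, so miR-503 still lay below the bulk of miRNAs in both. The arrays of OVA/OVA DEX and PBS/PBS did not overlap, as for 8.27% of all miRNAs in that direction. The difference from PBS/OVA passed without OVA/OVA DEX replicate 4 (-0.74, adjusted p = 0.0421).

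MiR-322, the neighbour of miR-503 in the cluster and a carrier of the family seed, did not pass. Its scaled signal (log2) was 11.09 and 11.07 in PBS/PBS and 11.14, 11.13, 10.92 and 11.11 in PBS/OVA. In OVA/OVA it ran from 10.62 over a median of 11.06 to 11.23, and the OVA/OVA DEX arrays read 10.72, 10.92, 10.87 and 10.88. Its OVA/OVA arrays overlapped with every other group, while the OVA/OVA DEX arrays lay just below those of PBS/OVA, with a difference of -0.23 (SE 0.119, limma adjusted p = 0.295, 95% interval -0.48 to 0.03). They also lay below both PBS/PBS arrays (-0.23, SE 0.145, limma adjusted p = 0.651). Arrays separated in this way for 7.52% of all miRNAs against PBS/OVA. The difference was -0.11 (SE 0.108, limma adjusted p = 0.446) from PBS/OVA to OVA/OVA and -0.12 (SE 0.108, limma adjusted p = 0.4) from OVA/OVA to OVA/OVA DEX.

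MiR-497 and miR-195, processed from a single cluster on chromosome 11, were lowest in OVA/OVA. For miR-497 the scaled signal (log2) was 11.61 and 11.58 in PBS/PBS, and 11.73, 11.69, 11.70 and 11.61 in PBS/OVA. The OVA/OVA arrays had a lowest value of 11.32, a median of 11.37 and a highest of 11.52, and the OVA/OVA DEX arrays read 11.56, 11.66, 11.58 and 11.73. All 6 OVA/OVA arrays were below all 10 others. MiR-497 fell by 0.30 from PBS/OVA to OVA/OVA (SE 0.0551, limma adjusted p = 0.00119, 1.23-fold) and rose by 0.25 after DEX (SE 0.0551, limma adjusted p = 0.00261, 1.19-fold). The arrays did not overlap in that direction for 9.02% and 16.5% of all miRNAs. Within slide 1 the differences were -0.35 (SE 0.12) and 0.30 (SE 0.12), within slide 2 -0.27 (SE 0.0833) and 0.22 (SE 0.0833), and none of these passed within a slide. With quantile normalization miR-497 lost both calls, at -0.17 (adjusted p = 0.155) in OVA/OVA and 0.0014 (adjusted p = 0.995) after DEX. Both were also lost with the percentile over all miRNAs (adjusted p = 0.0612 and 0.0504) and without scaling (adjusted p = 0.128 and 0.255).

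For miR-195 the scaled signal (log2) was 11.85 and 11.88 in PBS/PBS, and 11.96, 11.83, 11.88 and 11.83 in PBS/OVA. The OVA/OVA arrays spread from 11.17 over a median of 11.44 to 11.83, and the OVA/OVA DEX arrays read 11.72, 11.94, 11.83 and 11.80. The highest OVA/OVA array, replicate 5, reached the level of the other groups. MiR-195 fell by 0.41 from PBS/OVA to OVA/OVA (SE 0.109, limma adjusted p = 0.0136, 1.33-fold) and rose by 0.35 after DEX (SE 0.109, limma adjusted p = 0.0149, 1.28-fold). Within slide 1 the differences were -0.54 and 0.44 (SE 0.142 each) and within slide 2 -0.35 and 0.34 (SE 0.166 each), none of them past the test within a slide. With array brightness as a covariate the decrease lost its call (-0.34, adjusted p = 0.0638) and the rise kept it (0.30, adjusted p = 0.0473). With quantile normalization the rise of miR-195 lost its call (0.17, adjusted p = 0.135). Without scaling both calls were lost (adjusted p = 0.128 and 0.227), as with the exact Mann-Whitney test (adjusted p = 0.0685 and 0.0714), and the percentile over all miRNAs lost the decrease (-0.65, adjusted p = 0.0538).

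Against PBS/PBS, OVA/OVA was lower in miR-195 by a difference of -0.40 (SE 0.138, limma adjusted p = 0.0485) and in miR-497 by -0.21 (SE 0.0698, limma adjusted p = 0.0436), with no overlap of arrays in either. Separation from the 2 PBS/PBS arrays in that direction was seen for 25.6% of all miRNAs. When each of the 16 arrays was left out in turn, the difference of miR-195 was -0.47 to -0.34 and kept its call only without PBS/OVA replicate 2 or without OVA/OVA replicate 4 or 5 (adjusted p from 0.0103 to 0.237 over all 16). That of miR-497 was -0.24 to -0.19 and kept its call without the same arrays and without OVA/OVA DEX replicate 1 or 4 (adjusted p from 0.0179 to 0.247). With array brightness as a covariate neither passed. Between OVA/OVA DEX and PBS/OVA, miR-195 differed by -0.05 (SE 0.119, limma adjusted p = 0.851, 95% interval -0.31 to 0.20) and miR-497 by -0.05 (SE 0.0604, limma adjusted p = 0.763, 95% interval -0.18 to 0.08).

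**Figure D2:**
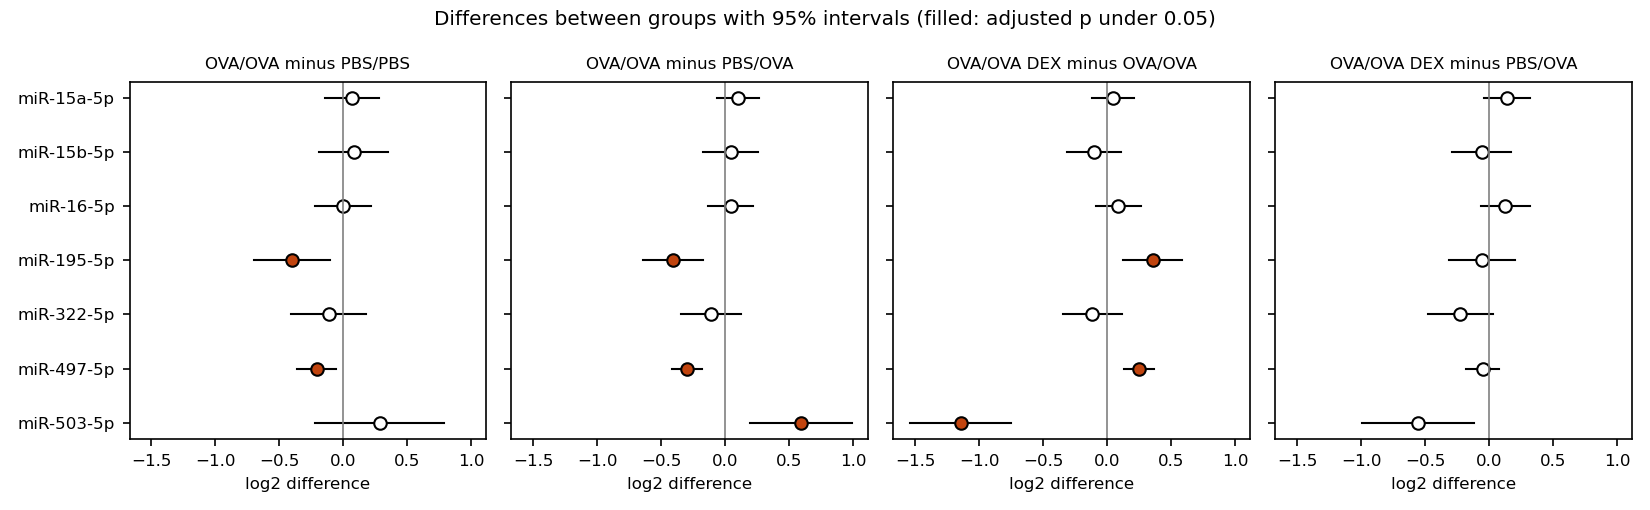
Log2 difference between groups for the 7 members (points) with 95% intervals (lines) in 4 comparisons, filled where the limma adjusted p was under 0.05. MiR-503 lies at 0.59 in OVA/OVA minus PBS/OVA, a value that turns to -0.075 with control spot scaling, and at -1.15 in OVA/OVA DEX minus OVA/OVA, with miR-195 and miR-497 on the opposite side of 0 in both.

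The members from the Dleu2 and Smc4 loci did not pass the test with the scaling used. MiR-15a was 12.68 and 12.60 in PBS/PBS (log2 scaled signal) and 12.76, 12.39, 12.65 and 12.63 in PBS/OVA. In OVA/OVA it ran from 12.57 over a median of 12.71 to 12.80, and in OVA/OVA DEX it was 12.84, 12.72, 12.82 and 12.60. All groups overlapped. Its differences were 0.10 from PBS/OVA to OVA/OVA (limma adjusted p = 0.314, 95% interval -0.06 to 0.27) and 0.04 after DEX (limma adjusted p = 0.672, 95% interval -0.12 to 0.21), and its 2 probes differed in sign after DEX, at 0.13 and -0.06.

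MiR-16, the member encoded at both loci, was 12.61 on both PBS/PBS arrays and 12.68, 12.33, 12.62 and 12.63 on the PBS/OVA arrays (log2 scaled signal). In OVA/OVA it ran from 12.48 over a median of 12.63 to 12.67, and in OVA/OVA DEX it was 12.86, 12.70, 12.71 and 12.50. Groups overlapped here too. Its differences were 0.04 from PBS/OVA to OVA/OVA (limma adjusted p = 0.698, 95% interval -0.13 to 0.22) and 0.09 after DEX (limma adjusted p = 0.41, 95% interval -0.09 to 0.26).

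MiR-15b was 11.74 and 11.67 in PBS/PBS (log2 scaled signal) and 11.76, 11.66, 11.74 and 11.81 in PBS/OVA. In OVA/OVA it ran from 11.59 over a median of 11.83 to 11.97, and in OVA/OVA DEX it was 11.79, 11.76, 11.81 and 11.37. Replicate 4 of OVA/OVA DEX lay below all other arrays. Its differences were 0.04 from PBS/OVA to OVA/OVA (limma adjusted p = 0.742, 95% interval -0.17 to 0.25) and -0.10 after DEX (limma adjusted p = 0.418, 95% interval -0.31 to 0.11). With quantile normalization miR-15b was called in both, at 0.28 (adjusted p = 0.0312) and -0.42 (adjusted p = 0.00183), and miR-15a in the first, at 0.21 (adjusted p = 0.0358).

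In the order of group means, OVA/OVA was highest for miR-503 and miR-15b and lowest for miR-195 and miR-497. OVA/OVA DEX was highest for miR-15a and miR-16 and lowest for miR-503, miR-322 and miR-15b. Neighbouring groups in this order passed the test only in 2 places, between OVA/OVA DEX and OVA/OVA for miR-195 and between PBS/PBS and OVA/OVA for miR-497. All other neighbours differed by less than the test could separate from their spread.

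The ratio of 2 members on the same array is free of any factor that scales a whole array. Of the 21 pairs, 13 changed their log2 ratio between PBS/OVA and OVA/OVA in the exact two-sided permutation test with adjustment over the pairs. Between OVA/OVA and OVA/OVA DEX 9 changed, and between PBS/OVA and OVA/OVA DEX 0 changed, where the smallest unadjusted p was 0.0571. That last comparison had 70 regroupings, against 210 in the first 2 comparisons. A pair can pass there only if many pairs change at once, so equal ratios are not read from the 0. All 6 pairs with miR-503 were among those that changed in each of the first 2 comparisons. Pairs that share a member are not separate results, and these 6 hold the change of miR-503 in common. No share over pairs of other miRNAs was computed, so nothing particular to the family is read from the counts. With normexp background correction and its offset of 50, 0 of the 21 pairs changed after DEX.

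The log2 ratio of miR-322 over miR-503, neighbours in a cluster, averaged 5.47 on the 2 PBS/PBS arrays (SD 0.09) and 5.77 on the 4 PBS/OVA arrays (SD 0.36). It averaged 5.07 on the 6 OVA/OVA arrays (SD 0.14) and 6.10 after DEX (SD 0.42, n = 4). Only the differences of this ratio between groups carry meaning, since the probes of the 2 miRNAs differ. It was lower in OVA/OVA than in PBS/OVA by a difference of -0.70 (exact permutation p = 0.00476, adjusted p = 0.0111) and higher after DEX by 1.03 (exact permutation p = 0.00476, adjusted p = 0.0125), with no overlap of arrays in either. The 2 members of this cluster thus changed relative to each other.

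The chromosome 11 pair gave another picture. The log2 ratio of miR-195 over miR-497 averaged 0.19 on the 4 PBS/OVA arrays (SD 0.04), 0.08 on the 6 OVA/OVA arrays (SD 0.20) and 0.19 on the 4 arrays after DEX (SD 0.10). It differed by -0.11 (exact permutation p = 0.338, adjusted p = 0.394) and 0.10 (exact permutation p = 0.381, adjusted p = 0.421). For miR-15a over miR-16 the differences were 0.06 (exact permutation p = 0.329, adjusted p = 0.394) and -0.04 (exact permutation p = 0.49, adjusted p = 0.515). For miR-15b over miR-16 they were 0.00044 (exact permutation p = 1, adjusted p = 1) and -0.19 (exact permutation p = 0.0762, adjusted p = 0.123).

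**Figure D3:**
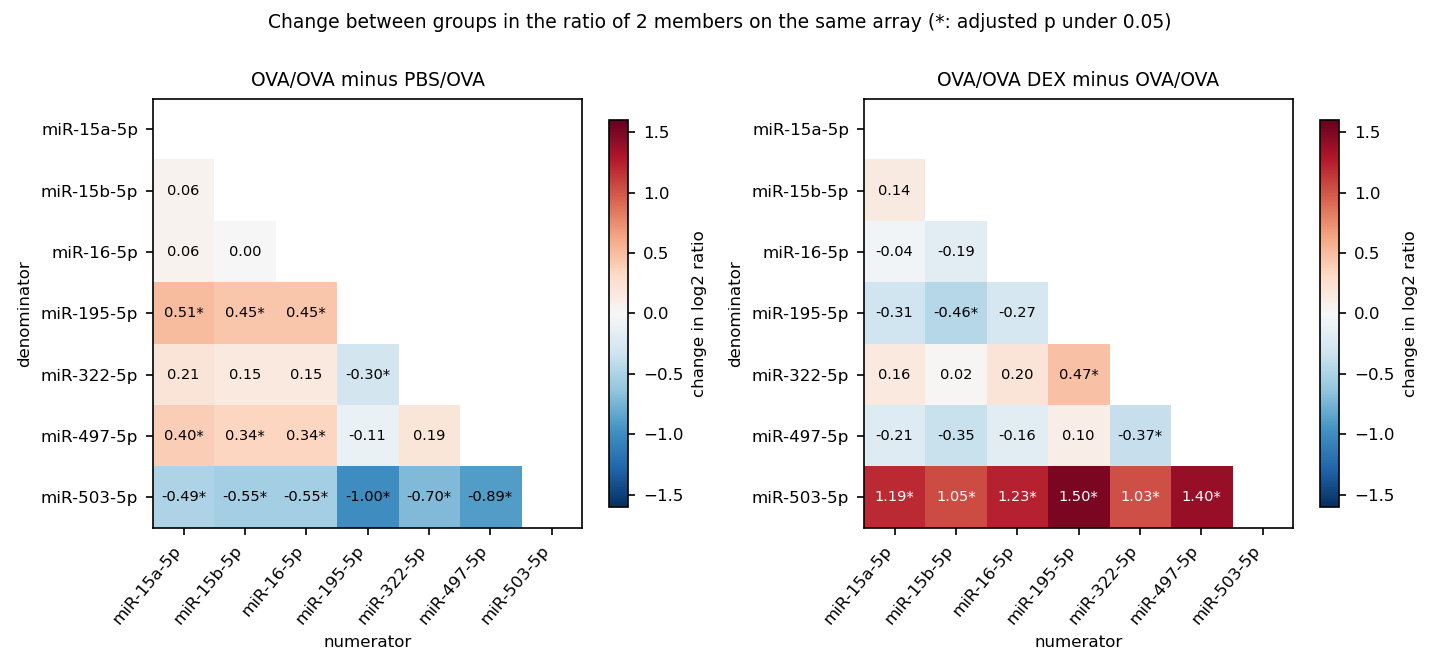
Change between groups in the log2 ratio of 2 members on the same array, for all 21 pairs in 2 comparisons, with the numerator on the horizontal and the denominator on the vertical axis and a star where the adjusted exact permutation p was under 0.05. The row of miR-503 as denominator holds a star for all 6 partners in both comparisons, with opposite signs.

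Within groups, the scatter between arrays of 2 members was compared over the 16 arrays after removing each group's mean. Of 21 relations, 1 passed a permutation test within groups after Benjamini-Hochberg adjustment. This was miR-15a with miR-15b, at Pearson r = 0.71 (permutation p = 0.00087, adjusted p = 0.0183) and Spearman rho = 0.69 (permutation p = 0.001, adjusted p = 0.021), and r = 0.65 without the 2 arrays farthest from the median of miR-15a. These miRNAs lie on different chromosomes but are alike in sequence, with 18 of 22 bases identical. MiR-195 and miR-322 also lie on different chromosomes, with 11 of 21 bases identical. They had the highest r of all, at 0.84 (permutation p = 0.00579, adjusted p = 0.0608), with rho = 0.56 (permutation p = 0.0775, adjusted p = 0.332). The pairs sharing a cluster had r = 0.74 for miR-15a with miR-16 (permutation p = 0.0183, adjusted p = 0.124; rho = 0.59, permutation p = 0.0406, adjusted p = 0.284), which dropped to 0.38 without the 2 farthest arrays, and r = 0.54 for miR-195 with miR-497 (permutation p = 0.0612, adjusted p = 0.184; rho = 0.55, permutation p = 0.0392, adjusted p = 0.284), which dropped to 0.27. For miR-322 with miR-503 r was 0.31 (permutation p = 0.2, adjusted p = 0.381; rho = 0.39, permutation p = 0.134, adjusted p = 0.4), and 0.06 without the 2 farthest arrays. MiR-15b and miR-16 also share a cluster, and had r = 0.60 (permutation p = 0.0237, adjusted p = 0.124), which dropped to 0.27 without the 2 farthest arrays. Their rho was 0.38 (permutation p = 0.152, adjusted p = 0.4). All members of an array share its scaling, and without scaling all 21 relations passed.

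The X-linked cluster holds further miRNAs outside the family, of which 7 were on the array and 6 could be tested. In OVA/OVA compared to PBS/OVA, 0 of these rose (14.7% of all miRNAs) and 1 fell (16.9% of all). This was miR-450b-3p, which fell by 0.67 (SE 0.166, limma adjusted p = 0.00903), and it was detected on 3 of 6 OVA/OVA arrays and on all arrays of the other groups. After DEX, 3 rose (32.3% of all) and 0 fell (21.1% of all). They were miR-450b-3p at 0.57 (SE 0.166, limma adjusted p = 0.0119), miR-450a-5p at 0.39 (SE 0.105, limma adjusted p = 0.00768) and miR-542-5p at 0.43 (SE 0.162, limma adjusted p = 0.0382). The median of the 6 was -0.31 in OVA/OVA compared to PBS/OVA and 0.34 after DEX, beside -0.04 and 0.09 over all miRNAs tested. With the scaling used, miR-503 lay on the opposite side of 0 from these medians in both comparisons.

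The nearest neighbour of miR-503 on the other side from miR-322 is miR-351, 688 bases away. MiR-351-5p was detected on 6 of the 16 arrays, among them 0 of the 4 OVA/OVA DEX arrays. Its difference was 0.12 in OVA/OVA compared to PBS/OVA (SE 0.649, limma adjusted p = 0.897) and -1.03 after DEX (SE 0.649, limma adjusted p = 0.201). Both had the sign of the difference of miR-503, and neither passed the test. MiR-450b-5p was detected on 4 of the 16. MiR-450a-2-3p was detected on none of the 16.

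**Figure D4:**
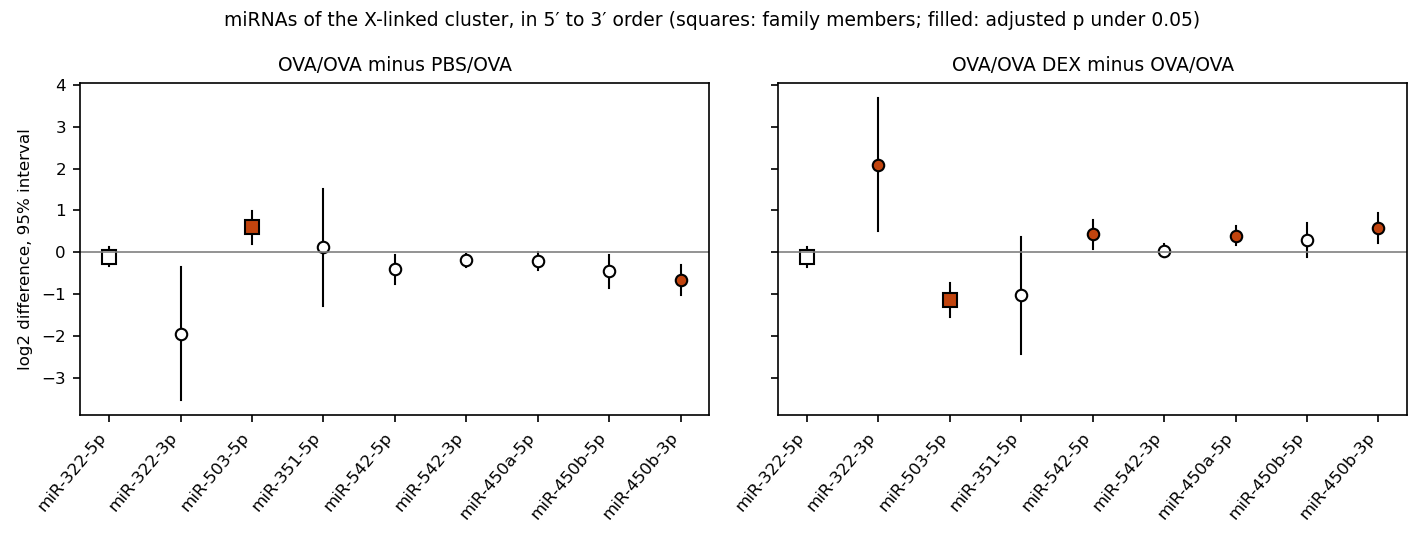
Log2 difference with 95% interval of the miRNAs of the X-linked cluster that could be tested, in 5′ to 3′ order along the minus strand, for OVA/OVA minus PBS/OVA and OVA/OVA DEX minus OVA/OVA, with squares for family members and filled symbols for a limma adjusted p under 0.05. MiR-503 is filled at 0.59 (-0.075 with control spot scaling) and -1.15, while miR-450b-3p is filled at -0.67 and 0.57.

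Opposite strands of the members' hairpins gave a weak signal where any was seen. Of 5 on the array, 2 could be tested. MiR-15b-3p, detected on all 16 arrays, rose by 0.39 in OVA/OVA over PBS/OVA (SE 0.132, limma adjusted p = 0.0374) while miR-15b-5p differed by 0.04. MiR-322-3p was detected on 3 of 6 OVA/OVA arrays and on all arrays of the other groups. Its difference was -1.96 (SE 0.739, limma adjusted p = 0.0578) in OVA/OVA compared to PBS/OVA, and it rose by 2.10 after DEX (SE 0.739, limma adjusted p = 0.0281), with some arrays at the signal floor of 0.77 on the log2 scale. MiR-16-1-3p and miR-503-3p were detected on none of the 16 arrays. MiR-15a-3p was detected on 5.

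MiR-103 and miR-107 carry the letters GCAGCA of the family seed shifted by 1 base.
miR-103-3p: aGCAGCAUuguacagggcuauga
miR-107-3p: aGCAGCAUuguacagggcuauca
MiR-103-3p fell by 0.19 in OVA/OVA compared to PBS/OVA (SE 0.0687, limma adjusted p = 0.049), and after DEX it differed by 0.06 (SE 0.0687, limma adjusted p = 0.498). MiR-107-3p differed by -0.10 (SE 0.0657, limma adjusted p = 0.23) and 0.09 (SE 0.0657, limma adjusted p = 0.282).

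Whole lung mixes many cell types, so fewer cells of a type and less miRNA per cell cannot be told apart. The labelled tissue showed its markers, with miR-126-3p and miR-126-5p of endothelium and 5 of 6 epithelial markers detected on every array. Haematopoietic markers had the same directions as miR-503 in these 2 comparisons. All 5 of them rose in OVA/OVA over PBS/OVA (14.7% of all miRNAs), and 4 of 5 fell after DEX (21.1% of all). Their summed signal (log2) was 15.00 to 15.56 in OVA/OVA, against 13.99 to 14.56 on the PBS/OVA arrays and 14.17 to 14.73 after DEX. The mean of this sum after DEX was 14.43, beside 14.35 in PBS/OVA and 14.43 in PBS/PBS. Taken singly, the 5 markers after DEX differed from PBS/OVA by -0.58 to 0.61. Of these, 1 passed as lower, while 2.26% of all miRNAs passed in either direction. From PBS/PBS they differed by -0.45 to 0.71, and 0 passed (0% of all). MiR-503 after DEX differed from PBS/OVA by -0.56 and from PBS/PBS by -0.86, neither past the test. The part of the haematopoietic markers in the change of miR-503 was not tested.

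Among the other marker lists, only that of endothelium passed with every marker in both comparisons and in the directions of miR-195 and miR-497. The fibroblast, striated muscle, smooth muscle and red cell markers tested all differed in the same directions but passed in part. The epithelial lists went both ways. Both endothelial markers fell in OVA/OVA and rose after DEX, with summed signals (log2) of 14.90 to 15.32 in OVA/OVA, against 15.22 to 15.51 on the PBS/OVA arrays and 15.31 to 15.56 after DEX. Of 3 fibroblast markers, 1 fell in OVA/OVA and 2 rose after DEX, with 12.06 to 12.32, 12.30 to 12.46 and 12.30 to 12.55 in the same order. Of the 5 striated muscle markers on the array, 3 could be tested, of which 2 fell in OVA/OVA and 2 rose after DEX, with 9.30 to 11.06, 10.88 to 11.42 and 10.72 to 11.49. At least 1 of the 5 was detected on no array of a group in each group. The 2 smooth muscle markers and the 2 red cell markers did not pass in OVA/OVA compared to PBS/OVA and rose after DEX, with summed signals of 11.16 to 11.45, 11.27 to 11.45 and 11.43 to 11.82 for smooth muscle and 15.17 to 16.10, 15.55 to 16.41 and 16.61 to 17.05 for red cells, which after DEX lay above all PBS/OVA arrays. Over all miRNAs, 16.9% were lower in OVA/OVA compared to PBS/OVA and 32.3% were higher after DEX. The part of these lists in the changes of miR-195 and miR-497 was not tested.

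The epithelial lists were mixed. Of 5 epithelial markers tested, 1 rose and 0 fell in OVA/OVA compared to PBS/OVA, and 1 rose and 1 fell after DEX. Of 3 ciliated cell markers, 0 passed in OVA/OVA compared to PBS/OVA, and 2 rose and 1 fell after DEX. The shares over all miRNAs were 14.7% higher and 16.9% lower in the first comparison, and 32.3% higher and 21.1% lower after DEX.

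Patterns most like those of the members were looked for among the other miRNAs detected on all arrays, by Pearson's r over the 16 arrays, as a description. Nearest to miR-503 were miR-690 (r = 0.79), miR-342-3p (r = 0.72) and miR-155-5p (r = 0.72). MiR-342-3p is also 1 of the haematopoietic markers above. Nearest to miR-497 were miR-218-5p (r = 0.95), miR-100-5p (r = 0.92) and miR-582-5p (r = 0.82), and nearest to miR-195 were miR-152-3p (r = 0.91), miR-24-3p (r = 0.88) and miR-151-5p (r = 0.88). For miR-16 they were miR-25-3p (r = 0.85), miR-106b-5p (r = 0.82) and miR-29b-3p (r = 0.77), and for miR-15a miR-192-5p (r = 0.72), miR-25-3p (r = 0.71) and miR-106b-5p (r = 0.70). MiR-15b had miR-350-3p (r = 0.74), miR-141-5p (r = 0.70) and miR-19b-3p (r = 0.61). For miR-322 the values were lower, with miR-146a-5p (r = 0.65), miR-350-3p (r = 0.54) and its cluster neighbour miR-542-3p (r = 0.53).

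How arrays are brought to a common scale shifts all miRNAs together, and the size of a member's difference moves with it. Between OVA/OVA and OVA/OVA DEX the median of all miRNAs was 0.09 with the scaling used, 0.31 with a percentile taken over all miRNAs, 0.38 without scaling, 0.14 with quantile normalization and 0.82 with control spots. Over these 5 scalings the difference of miR-503 ran from -1.15 to -0.42, and relative to the median of all miRNAs from -1.23 to -0.96. For miR-195 the difference ran from 0.17 to 1.08 and relative to the median from 0.02 to 0.27. For miR-497 it ran from 0.0014 to 0.98 and relative to the median from -0.14 to 0.16, so that its direction against other miRNAs turned with quantile normalization.

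Between PBS/OVA and OVA/OVA the same scalings placed the median of all miRNAs at -0.04, -0.28, -0.56, -0.12 and -0.71. The difference of miR-503 ran from -0.075 to 0.59 and relative to the median from 0.37 to 0.63. For miR-195 it ran from -1.07 to -0.37 and relative to the median from -0.37 to -0.25. For miR-497 it ran from -0.96 to -0.17 and relative to the median from -0.26 to -0.05.

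**Figure D5:**
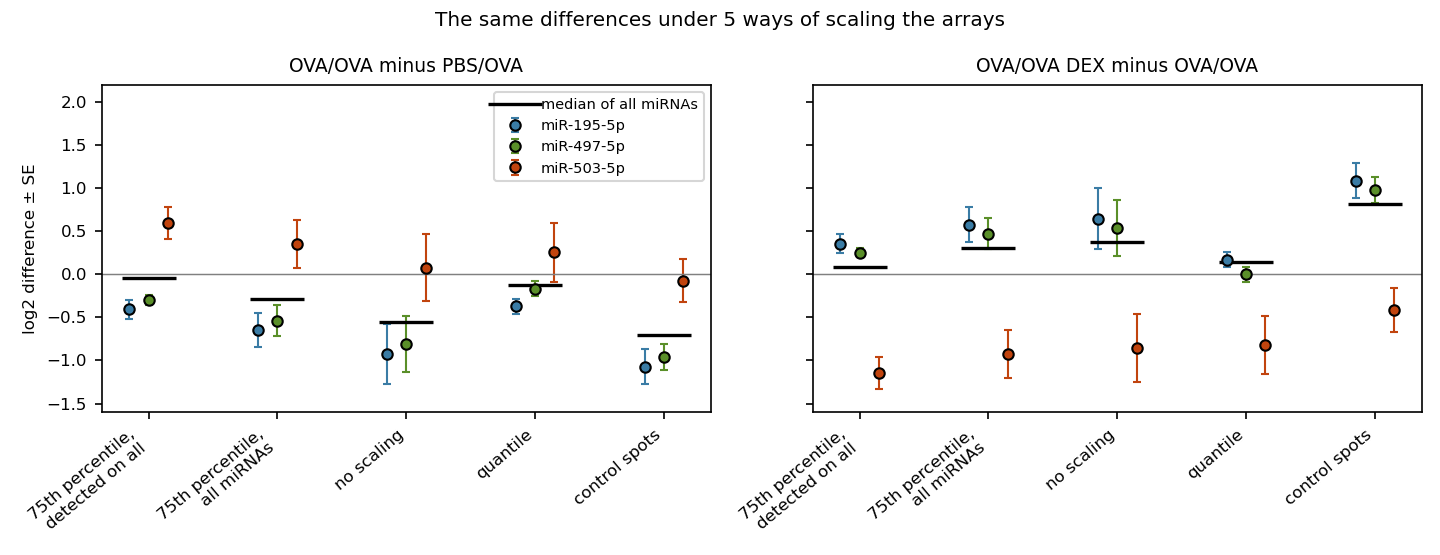
Log2 difference ± SE of miR-195-5p, miR-497-5p and miR-503-5p under 5 ways of scaling the arrays, with the median of all tested miRNAs as black bars, for OVA/OVA minus PBS/OVA and OVA/OVA DEX minus OVA/OVA. MiR-503 lies above the bar in the first comparison under every scaling, though at -0.075 with control spots, and below the bar in the second under every scaling.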

How the data were processed

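Feature Extraction 10.7.3.1 was used by the authors to make the deposited scanner files, which give the processed intensity of each spot after background subtraction, not yet normalized across arrays. A deposited value table holds the authors' processed log2 values, shifted by a constant per array, and served as an alternative for those 154 miRNAs whose values lay within 0.15 of the scanner output. No tool between scanner file and table is given in the labels, while the methods name Genespring GX.

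Control spots and spots with outlier flags were left out. Each array held 13000 spots and 1857 probes, each member had 2 probes, and 0 spots were saturated. Spots of a probe were averaged and probes of a miRNA summed. Arrays were scaled by the 75th percentile of the 206 miRNAs that were detected throughout. Signals under a floor of 1.71, the median over arrays of the lowest detected signal, were set to it before log2. All groups were fitted together with limma 3.58.1 in R 4.3.3, with Benjamini-Hochberg adjustment over 266 miRNAs. The fit was tested on simulated data. Ratios and correlations were computed in Python 3.11.15 with numpy 2.4.6, scipy 1.17.1 and pandas 2.3.3, with 100000 permutations for correlations and all regroupings for ratios.

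The rule for the members uses names only, but the family, the marker and neighbour lists and the rule for likeness of pattern (the 3 highest r per member) were picked with earlier results of these data known. Alternatives were other scalings, normexp on the median spot signal (offset 50), and other summaries of probes, floors and filters. Further ones were slide or replicate number as a block, array brightness as a covariate, other fits, tests and thresholds, and leaving out each array. A sign change is counted as a reversal only where a value passed the test under either setting or exceeded its standard error. Groups and replicate numbers came from the sample titles. Leaving out 1 PBS/PBS array leaves a lone array that is assumed to vary like the other groups.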

Additional observations from a re-analysis of the deposited data

Results flagged for a closer look

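In 3 of 21 combinations of a member and a group of 4 or 6 arrays, 1 array stood apart from the rest by Dixon's test at the 95% level, which chance alone gives for about 1 in 20. MiR-15b-5p was 11.37 (log2 scaled signal) on OVA/OVA DEX replicate 4, against 11.76 to 11.81 on the other OVA/OVA DEX arrays. MiR-322-5p was 10.92 on PBS/OVA replicate 3, against 11.11 to 11.14 on the others of its group. MiR-497-5p was 11.52 on OVA/OVA replicate 5, against 11.32 to 11.38 on the others, and this array was still below all arrays of the other groups.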

How the results depend on the processing

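Over 42 differences (7 members in 6 comparisons) and 1527 alternatives, 1403 kept direction and side of the threshold, 80 lost a call, 13 gained one and 31 changed sign. In the comparisons PBS/OVA minus PBS/PBS and OVA/OVA DEX minus PBS/PBS, 0 members passed under every alternative run. The cause of the changes below was not tested, except that single slides and single arrays left out mean fewer samples. The exact Mann-Whitney test cannot go below p = 0.0714 with 6 arrays against 2, or below p = 0.133 with 4 against 2. MiR-503 is the dim member, with an unscaled signal of 16.9 to 95.8.

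In OVA/OVA minus PBS/PBS, 2 members passed. The count was 6 without scaling and with control spot scaling. It was 1 with the mean of log2 probe signals, the brightest probe, the total gene signal, no detection filter or slide as a block. It was 0 with quantile normalization, array brightness as a covariate, slide 1 alone, only the compared groups, the deposited values (6 members), the exact Mann-Whitney test, a 2-fold minimum or an adjusted p under 0.01, and 0 to 2 leaving out single arrays. In OVA/OVA minus PBS/OVA, 3 passed (1 higher, 2 lower), against 6 with control spots (all lower), 3 with quantile normalization, of which only miR-195 was shared, 1 at an adjusted p under 0.01 and 0 without scaling, with the percentile over all miRNAs, within slide 1, within slide 2 or with a 2-fold minimum (2 to 3 leaving out single arrays). In OVA/OVA DEX minus OVA/OVA, 3 passed (2 higher, 1 lower), against 6 with control spots (all higher), 1 with quantile normalization, within slide 2 or with a 2-fold minimum, and 0 without scaling or within slide 1 (3 whichever array was left out). In OVA/OVA DEX minus PBS/OVA the count was 0, and 0 to 1 leaving out single arrays. The F-test was passed by 3 members, against 6 with control spots and 0 without scaling or within slide 1. Of the pair ratios, 9 changed after DEX, against 0 with normexp and 8 to 11 leaving out single arrays, and 13 changed in OVA/OVA minus PBS/OVA (12 to 14). Of the within-group correlations 1 passed, against 21 without scaling and 21 with the percentile over all miRNAs.

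With the replicate number as a block, 1, 3 and 3 members passed in OVA/OVA minus PBS/PBS, OVA/OVA minus PBS/OVA and OVA/OVA DEX minus OVA/OVA. Deviations of same-numbered arrays correlated at -0.78 to 0.41, so these arrays share only a number.

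Signs changed as follows. With the percentile over all miRNAs, miR-497 was -0.21 in PBS/OVA minus PBS/PBS, miR-503 -0.25 in OVA/OVA minus PBS/PBS, miR-15a -0.14 in OVA/OVA minus PBS/OVA and -0.21 in OVA/OVA DEX minus PBS/PBS, and after DEX miR-15b was 0.12 and miR-322 0.10. Without scaling, miR-497 was -0.49 in PBS/OVA minus PBS/PBS. In OVA/OVA minus PBS/PBS miR-15a was then -1.03, miR-15b -1.02 and miR-503 -0.81. MiR-15a was -0.41 in OVA/OVA minus PBS/OVA, -0.70 in OVA/OVA DEX minus PBS/PBS and -0.083 in OVA/OVA DEX minus PBS/OVA, where miR-16 was -0.10, and after DEX miR-15b was 0.19 and miR-322 0.17. With control spots, miR-15a was -0.67, miR-15b -0.65 and miR-503 -0.45 in OVA/OVA minus PBS/PBS. In OVA/OVA minus PBS/OVA miR-15a was -0.56, miR-15b -0.62, miR-16 -0.62 and miR-503 -0.075, and after DEX miR-15b was 0.63 and miR-322 0.61. With quantile normalization, miR-503 was -0.26 in OVA/OVA minus PBS/PBS and miR-16 -0.11 after DEX. With normexp, miR-503 was 0.24 in PBS/OVA minus PBS/PBS, 0.27 in OVA/OVA DEX minus PBS/PBS and 0.034 in OVA/OVA DEX minus PBS/OVA. The median of all miRNAs was then 0.24, 0.34 and 0.14 in the same order. Leaving out single arrays, miR-15b after DEX ranged from -0.14 to 0.0027, the latter without OVA/OVA DEX replicate 4.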

Other observations

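The deposited processed table lists miR-503 at values that departed from the scanner output on part of the arrays. After removing the constant shift of each array, the row lay within 0.15 of the log2 total gene signal on 7 of 16 arrays and was higher than it by 2.24 to 3.33 on the other 9. These were all 4 OVA/OVA DEX arrays, 4 of 6 OVA/OVA arrays and 1 of 4 PBS/OVA arrays. On the 9 arrays the total gene signal of miR-503 was 10.4 to 21.9, and on the 7 others it was 28.4 to 61.5. The other 6 members matched on all 16 arrays. The cause was not tested, and the table was not used for miR-503.

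In the same table the row named for the opposite strand of miR-15b equalled the row of miR-15b on all 16 arrays, and the row for the opposite strand of miR-322 lay within 0.1 of that of miR-322 on 13 of 16. The cause was not tested.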
